A study of Mus musculus with 8 samples.

Results

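The transcripts described here encode the nuclear subunits of the mitochondrial respiratory chain and of the ATP synthase, measured in the hypothalamus of C57BL/6J mice. Members were chosen by gene symbol alone: every array probe annotated to a single gene whose symbol began with Nduf followed by a, b, c, s or v and a digit, Uqcr, Atp5, or Cox followed by a digit from 4 to 8, or was Sdha, Sdhb, Sdhc, Sdhd or Cyc1. The rule found 63 probes for 62 genes among 33012 probes, of which 14411 named 1 gene each and together 13841 genes. By complex these were 27 genes of complex I, 4 of complex II, 7 of complex III, 12 of complex IV and 12 of complex V. The 27 include Ndufs5-ps, which is annotated as a transcribed pseudogene and not as a coding gene. In the RefSeq annotation 88 protein-coding genes have a symbol that fits the rule. A value was present on all 7 arrays compared for 60 of the 62 genes, and Cox4i2 and Sdhb had a value on none of these 7.

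Male mice of this inbred strain received a high-fat diet from 8 wk of age for 6 wk, a low-fat diet for 2 wk and the high-fat diet again for 6 wk. In the paper's protocol with these periods, the low-fat diet was restricted to less than each mouse had eaten before. Animals with high weight gain (high gainers) and with low weight gain (low gainers) were compared, the question being whether transcript levels in the hypothalamus differed between them. RNA from 20 animals was combined into 1 pool per group, and each pool was hybridized to 4 one-colour arrays numbered 1 to 4. Both pools had the same strain, sex, diets and duration, and no untreated or chow-fed pool was part of the comparison. Because there was 1 pool per group, the p-values below measure the spread between arrays of a pool, which is technical, and not the spread between mice.

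The respiratory chain passes electrons from NADH and succinate through complexes I to IV to oxygen while protons are pumped across the inner mitochondrial membrane, and complex V, the ATP synthase, uses the return of these protons to make ATP. Neurons draw most of their ATP from this pathway, so its nuclear transcripts are abundant in brain. Complex II differs from the others in that it pumps no protons and also works in the tricarboxylic acid cycle.

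Promoter sequence was available for 51 of the 62 genes as windows of 300 bases around the start of transcription (RefSeq, build GRCm38.p6). Motifs were searched on both strands: the core bound by NRF1, a regulator of nuclear genes for mitochondrial proteins, CCGGAAG as the core of the ETS family, AANATGGC as the core of YY1, and TATAAA as the TATA box. No motif contains another of the 4. The NRF1 core occurred in the windows of 12 of 51 members (23.5%), and in 7.17% of 17491 protein-coding genes. The YY1 core occurred for 14 members (27.5%), 10 of them in complex I, and in 7.46% of all coding genes. The ETS core occurred for 11 members (21.6%), with 12.9% over all coding genes, and TATAAA for 6 members (11.8%), with 14.8% over all. These are matches of letters and not measured binding. The following stretches hold the 120 bases just before the start, with the matches to the NRF1 and ETS cores in capitals. Ndufs6 (chr13:73328483-73328602), Uqcr11 (chr10:80406822-80406941), Cox6b1 (chr7:30626115-30626234) and Atp5e (chr2:174464102-174464221) are 4 of 27 members brightest on low gainer arrays 3 and 4 once the arrays were normalized again. For Cox6b1 this did not hold on the deposited scale. Sdhd (chr9:50603850-50603969) is shown because its transcript was not among the 27. Each of the 5 stretches holds a match, so they do not show how often the 27 carry one, which was not counted. All 5 lie on the minus strand and are written 5′ to 3′ in the direction of the gene.
Ndufs6: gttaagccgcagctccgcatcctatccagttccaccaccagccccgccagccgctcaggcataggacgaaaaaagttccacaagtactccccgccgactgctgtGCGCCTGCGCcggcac
Uqcr11: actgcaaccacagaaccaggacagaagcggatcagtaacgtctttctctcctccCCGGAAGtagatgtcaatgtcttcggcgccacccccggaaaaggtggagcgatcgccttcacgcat
Cox6b1: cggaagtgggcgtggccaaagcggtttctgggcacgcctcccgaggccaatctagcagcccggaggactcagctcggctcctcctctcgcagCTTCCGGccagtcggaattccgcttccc
Atp5e: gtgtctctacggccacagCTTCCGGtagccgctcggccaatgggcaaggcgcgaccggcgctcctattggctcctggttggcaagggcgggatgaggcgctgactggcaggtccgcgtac
Sdhd: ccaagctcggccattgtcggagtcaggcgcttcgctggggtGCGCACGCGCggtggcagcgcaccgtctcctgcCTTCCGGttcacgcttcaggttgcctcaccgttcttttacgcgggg
The NRF1 match of Ndufs6 lay 16 to 7 bases before the start. In Sdhd, a subunit that anchors complex II in the membrane, an NRF1 match at 79 to 70 bases and an ETS match at 46 to 40 bases preceded the start. The ETS matches lay 66 to 60 bases before the start in Uqcr11, 28 to 22 bases in Cox6b1 and 102 to 96 bases in Atp5e.

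Intensities are the authors' normalized values in arbitrary units, and each array held 13657 to 16873 of them. Low gainer array 2 stood apart, with correlations of 0.227 to 0.243 with the other arrays over the log2 values, and is kept out of the comparison and described at the end. Among the other 7 arrays, low gainer array 1 lay closest to a high gainer array: its correlation of 0.987 with high gainer array 3 over 11169 probes was the highest of all 21 pairs, whereas the 3 pairs of low gainer arrays gave 0.943 to 0.962 and the 6 pairs of high gainer arrays 0.973 to 0.984. On the growth hormone transcript Gh, however, low gainer array 1 lay with its own pool, at -3.83 relative to the high gainer mean on the log2 scale, beside -3.23 and -3.38 for low gainer arrays 3 and 4. Of 16 genes known for hypothalamic neurons, 10 were measured on all 7 arrays, among them Oxt, Avp, Hcrt and Npy, and Ghrh and Nkx2-1 had no value on any of the 7. The members called at the adjusted p threshold, their median difference, their count below 0 and the count not overlapping are given with and without it. Other results use all 7 arrays unless stated.

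The 60 measured members were among the brighter probes of every array compared. Their median percentile among the values of an array was 89.7 to 92.2 in high gainers and 90.9, 94.1 and 94.0 on low gainer arrays 1, 3 and 4. Of the 60, 53 fell in the brighter 50% of the 11169 probes and 28 among the brightest 1117. Brightness also depends on the probe, so the percentiles compare arrays and do not rank genes by their transcript number.

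**Figure D1:**
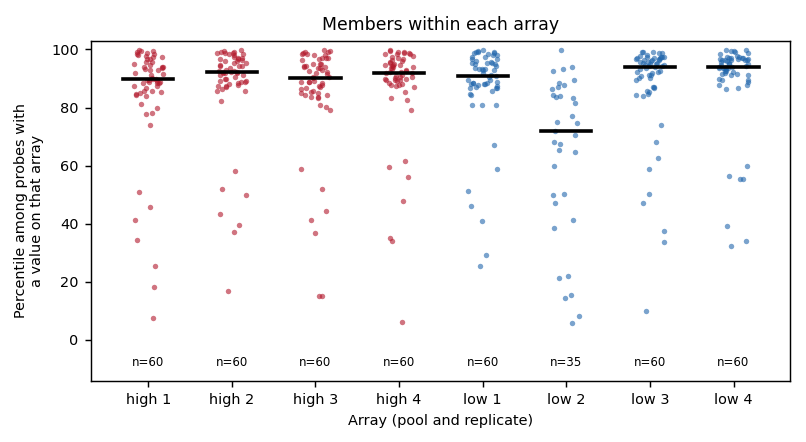
Percentile of each member (points) among all probes with a value on the same array, by pool and array number, with the median as a black bar and the number of members with a value beneath. The medians lie between 89.7 and 94.1 on 7 arrays and at 71.9 on low gainer array 2, where 35 members had a value.

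None of the 60 members passed limma at an adjusted p of 0.05 over all 11169 probes, of which 0.0269% were called, 3 in all (Gh, Prl and Cga, hormones of the anterior pituitary, higher in high gainers). The smallest adjusted p of a member by limma was 0.750. At an unadjusted p under 0.05 limma counted 16 members, 15 of them lower in high gainers, beside 6.48% of all probes in either direction and 3.41% in the lower direction. At the methods' threshold, a p of 0.01 with a 1.5-fold difference, limma counted 5 members lower and 0 higher in high gainers (0.573% and 0.457% of all probes). The methods' t-test at the same threshold counted 0 members in either direction (0.0895% and 0.0806% of all probes), and 0 members after Benjamini-Hochberg adjustment.

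Most differences had the same sign. The log2 difference, high gainers minus low gainers, was below 0 for 48 of 60 members, against 50.4% of all probes, and its median was -0.30, against 0.00 over all probes and 0.03 over the brightest 10%. It ranged from -0.79 for Atp5mpl to 0.45 for Atp5md. By complex, 25 of 27 genes of complex I lay below 0 (median -0.31), 1 of 3 of complex II (median 0.11), 5 of 7 of complex III (median -0.13), 9 of 11 of complex IV (median -0.40) and 8 of 12 of complex V (median -0.20).

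**Figure D2:**
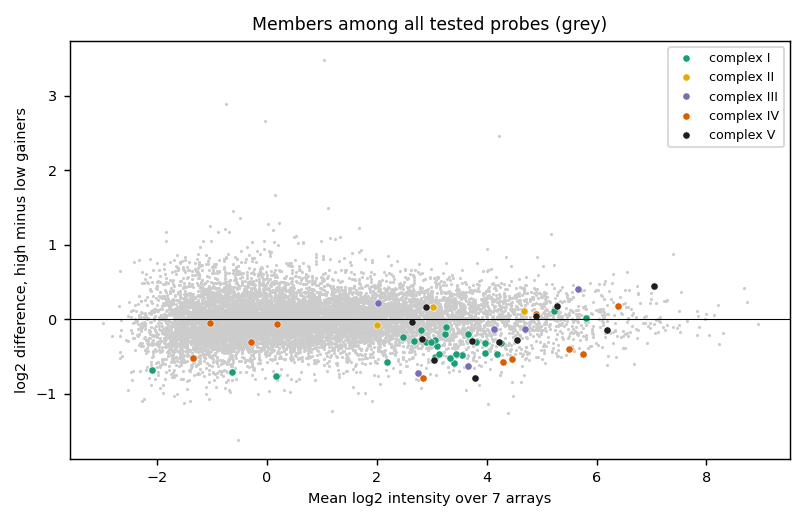
The log2 difference between high and low gainers (vertical) against the mean log2 intensity over 7 arrays (horizontal) for each of 11169 probes (grey) and each of 60 members, coloured by complex. The members lie mostly below 0, down to -0.79, at intensities where the grey points centre on 0, and the highest grey points are not members.

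These differences were of the size of the spread within a pool. The pooled standard deviation of the arrays within a pool had a median of 0.31 on the log2 scale over members, and the difference exceeded it for 36 of 60 members (3177 of 11169 probes) and exceeded 2 times it for 2 members (440 of 11169 probes). The spread was wider among the 3 low gainer arrays, with a median standard deviation of 0.36 against 0.21 among the 4 high gainer arrays, and it was the wider of the pair for 50 of 60 members (8100 of 11169 probes). After normalization the pools did not overlap for 1 member, Ndufb8, the dimmest member, lower in high gainers, beside 2.70% of all probes in that direction. In the other direction there were 0 members, beside 2.07%. That count of 1 rose to 32 (28 lower and 4 higher) without low gainer array 1, beside 26.3% of all probes, and to 10 without high gainer array 4, beside 8.05%.

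The spread within the low gainer pool had a common shape. Relative to the mean of the high gainer arrays, the members' medians on the log2 scale were 0.03, 0.48 and 0.44 for low gainer arrays 1, 3 and 4. Over all probes the medians were 0.00, 0.03 and 0.03. Low gainer array 1 lay within the range of the 4 high gainer arrays for 46 of 60 members (59.8% of all probes), while array 3 lay above all 4 for 38 members (31.1% of all probes) and array 4 for 38 members (32.2%). Arrays 3 and 4 were the brightest pair of the 7 for 27 members, beside 13.9% of all probes. Of these 27 genes, 17 were listed under complex I, 0 under complex II, 2 under complex III, 5 under complex IV and 3 under complex V. The 17 include the pseudogene Ndufs5-ps. In the opposite direction arrays 3 and 4 were the dimmest pair for 4 members, Ndufs1, Uqcrfs1, Cox7b and Atp5pb, beside 10.6% of all probes. These counts use the values after normalization, and on the deposited scale the pair was not the dimmest for Ndufs1 and Cox7b, nor the brightest for Cox6b1. On that scale it was also the brightest for Ndufv1, Uqcrc2 and Cox7a1, which the counts leave out.

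**Figure D3:**
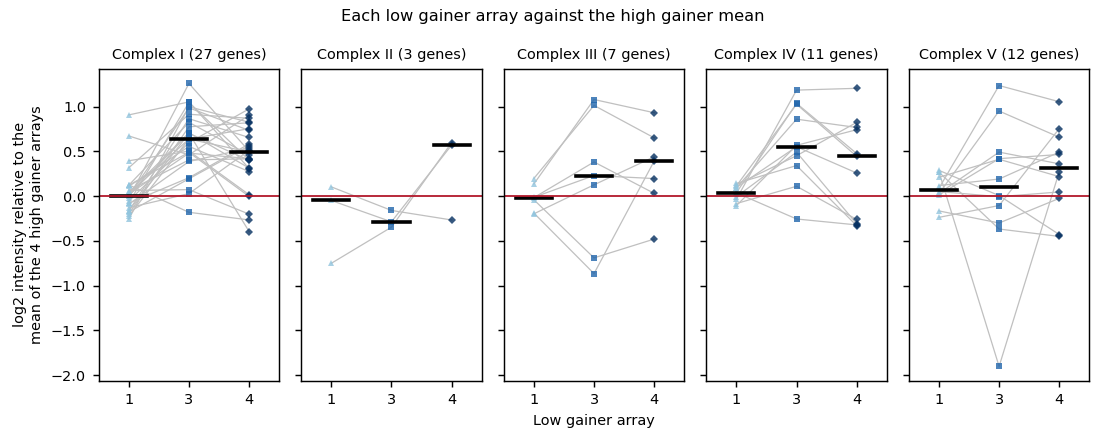
The log2 intensity of each member on low gainer arrays 1, 3 and 4 relative to the mean of the 4 high gainer arrays (red line at 0), by complex, with grey lines joining the values of a gene and black bars at the medians. In complex I the medians are 0.00, 0.64 and 0.49, and in complex IV 0.04, 0.55 and 0.44, while in complex II array 3 lies at -0.29 and array 4 at 0.57.

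Leaving out low gainer array 1 brought 10 of 60 members past the limma threshold, all lower in high gainers, beside 0.685% of 11247 probes called lower and 0.836% called higher. In order of adjusted p these were Cox5b, Ndufs6, Uqcr11, Atp5mpl, Ndufb5, Ndufs5-ps, Atp5e, Uqcr10, Ndufb9 and Cox7c. The members' median log2 difference was then -0.41, with 49 of 60 below 0. By complex the median was then -0.55 for I, -0.13 for II, -0.21 for III, -0.63 for IV and -0.32 for V. The count of called members thus depended on 1 array, and so did the sign of the median of complex II. By the members' medians low gainer array 1 was the low gainer array nearest the high gainers. Leaving it out therefore favoured larger differences and a narrower low gainer spread. The adjusted p-values without it, here and below, describe that dependence and are no separate support for a difference between the pools. With low gainer array 1 as the only low gainer array, 34 of 60 lay below 0, the median was -0.03, and 14 of 60 lay outside the high gainer range, beside 40.2% of all probes. No call is read from that comparison, since 1 array has no spread of its own, and all low gainer arrays were made from the same RNA pool. In the account of each complex that follows, the values of a gene are given for high gainer arrays 1, 2, 3 and 4 and then for low gainer arrays 1, 3 and 4, in deposited units.

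**Figure D4:**
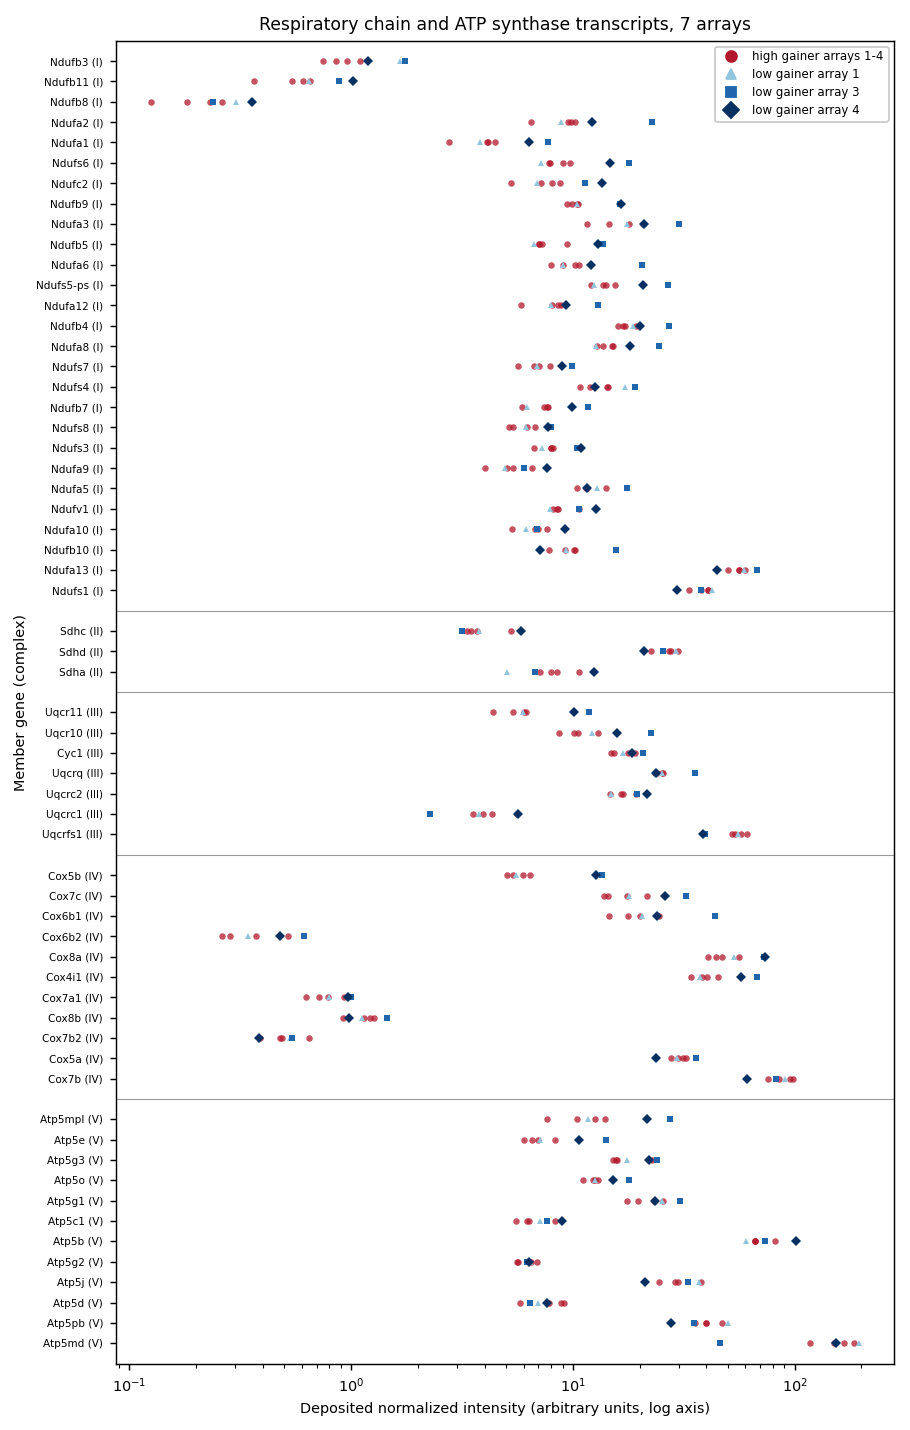
Deposited normalized intensity (log axis, arbitrary units) of the 60 members on the 4 high gainer arrays (red circles) and on low gainer arrays 1 (light triangles), 3 (squares) and 4 (dark diamonds), ordered within each complex by the log2 difference. In the rows of Cox5b, Cox7c, Uqcr10, Uqcr11 and Atp5e, for example, the triangle lies among the circles while the square and the diamond lie to their right; for Cox5b the square and the diamond stand at 13.5 and 12.7 and the rest between 5.05 and 6.40.

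Complex I takes electrons from NADH through a set of core subunits, which hold the flavin and iron-sulphur centres, and is completed by many accessory subunits. Ndufb3, an accessory subunit of the membrane arm, had values of 0.745, 0.857, 0.956 and 1.10 in high gainers and of 1.67, 1.76 and 1.20 in low gainers. All 3 low gainer values lay above the high gainer values on this deposited scale, although the pools met once the arrays were normalized again, and the log2 difference was -0.76 (95% interval -1.27 to -0.24, limma adjusted p = 0.750). Ndufb8, an accessory subunit of the same arm, gave 0.182, 0.232, 0.263 and 0.126 in high gainers and 0.303, 0.239 and 0.357 in low gainers. Its pools met on the deposited scale and separated after normalization, with a log2 difference of -0.68 (95% interval -1.34 to -0.02). Ndufb8 was the dimmest member by mean intensity, at percentiles 6.21 to 32.3 of the values of an array.

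Ndufb11 showed the split between low gainer arrays more plainly. It read 0.364, 0.606, 0.542 and 0.652 in high gainers and 0.644, 0.881 and 1.02 in low gainers, so that arrays 3 and 4 stood above all high gainer arrays and array 1 just under the highest of them. Ndufb9, likewise a membrane arm subunit, read 9.90, 10.4, 9.37 and 10.6 in high gainers and 10.4, 16.4 and 16.5 in low gainers. Its log2 difference was -0.47 with all 7 arrays (limma adjusted p = 0.750) and -0.69 without low gainer array 1 (limma adjusted p = 0.0443). Ndufa1, a small accessory subunit encoded on the X chromosome, read 2.78, 4.10, 4.16 and 4.47 in high gainers and 3.82, 7.74 and 6.35 in low gainers, again with arrays 3 and 4 alone above the high gainers.

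Ndufs6, an accessory subunit needed to complete the matrix arm, whose promoter is printed above, read 7.78, 9.0, 7.90 and 9.72 in high gainers and 7.21, 17.9 and 14.7 in low gainers. Low gainer array 1 was the lowest of all 7 arrays for this gene and arrays 3 and 4 the highest. Without array 1 its level was 1.88-fold higher in low gainers (limma adjusted p = 0.0200), and with it the difference was not called (adjusted p = 0.756). Ndufb5 followed the same order, with 6.68, 13.7 and 13.0 in low gainers against 7.04 to 9.38 in high gainers. The probe annotated to Ndufs5-ps, a transcribed pseudogene that may share sequence with Ndufs5, is uncertain as to its source and read 12.4, 26.8 and 20.7 in low gainers against 12.0 to 15.5 in high gainers.

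The 2 brightest probes of complex I did not share this shape. Ndufs1, the largest core subunit encoded in the nucleus, read 40.8, 33.4, 37.7 and 40.7 in high gainers and 42.2, 37.9 and 29.5 in low gainers, with a log2 difference of 0.11 (95% interval -0.22 to 0.43). Ndufa13, an accessory subunit also known as GRIM-19, read 59.7, 50.1, 56.1 and 56.3 in high gainers and 59.2, 67.5 and 44.5 in low gainers, so that low gainer arrays 3 and 4 were the highest and the lowest of the 7. Among the 5 core subunits measured, Ndufs1, Ndufs3, Ndufs7, Ndufs8 and Ndufv1, 4 lay below 0 with a median of -0.28, and among 21 accessory subunits 20 lay below 0 with a median of -0.46. The difference between core and accessory subunits was not tested, and the split into these classes was made after the values were seen.

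Complex II oxidizes succinate and hands its electrons to ubiquinone. Sdha, its catalytic flavoprotein, read 8.45, 10.7, 7.10 and 7.94 in high gainers and 5.08, 6.77 and 12.4 in low gainers. The low gainer arrays thus held both the lowest and the highest value, and the log2 difference of 0.17 (95% interval -0.40 to 0.73) became -0.13 without low gainer array 1. Sdhc, a membrane anchor, read 3.47, 5.29, 3.69 and 3.34 in high gainers and 3.76, 3.17 and 5.83 in low gainers, and the other anchor, Sdhd, read 29.7, 22.4, 27.7 and 27.1 in high gainers and 29.3, 25.5 and 21.1 in low gainers. For Sdha and Sdhc low gainer array 4 stood highest of the 7, and for Sdhd it stood lowest. The 95% intervals of the other pair, -0.57 to 0.41 for Sdhc and -0.23 to 0.45 for Sdhd, include 0 as well.

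Complex III passes electrons from ubiquinol to cytochrome c. Uqcr11, a small subunit of the complex, read 4.35, 6.02, 5.36 and 6.13 in high gainers and 5.98, 11.9 and 10.1 in low gainers. Uqcr10, another small subunit, read 8.71, 10.1, 10.5 and 13.0 in high gainers and 12.2, 22.6 and 15.9 in low gainers. For both genes low gainer arrays 3 and 4 were above all other arrays and array 1 was within the high gainer range. The log2 difference of Uqcr11 was -0.72 (95% interval -1.19 to -0.24) and that of Uqcr10 -0.62 (95% interval -1.05 to -0.19), each with a limma adjusted p of 0.750, and without array 1 the adjusted p by limma was 0.0232 and 0.0443.

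The Rieske iron-sulphur protein Uqcrfs1, which takes part in the electron transfer of the complex, moved the other way. Its values were 54.1, 52.4, 61.3 and 57.3 in high gainers and 55.7, 39.6 and 38.5 in low gainers. Here too low gainer array 1 lay among the high gainers while arrays 3 and 4 were set apart, this time below, and the log2 difference was 0.40 (95% interval 0.05 to 0.75, limma adjusted p = 0.752). Uqcrq, another small subunit, read 24.1, 25.6, 25.3 and 23.5 in high gainers and 25.3, 35.7 and 23.8 in low gainers, with array 3 alone above the others. Cyc1, the haem subunit cytochrome c1, and the core proteins Uqcrc1 and Uqcrc2 had log2 differences of -0.14, 0.22 and -0.12.

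Complex IV, cytochrome c oxidase, reduces oxygen to water, and its nuclear subunits surround a catalytic core made in the mitochondrion. Cox5b, which lies on the matrix side of the complex, read 5.99, 5.39, 5.05 and 6.40 in high gainers and 5.56, 13.5 and 12.7 in low gainers. Low gainer array 1 was inside the narrow range of the high gainers and arrays 3 and 4 were far above it. The log2 difference was -0.78 (95% interval -1.33 to -0.24, limma adjusted p = 0.750) and, without low gainer array 1, -1.20 (95% interval -1.55 to -0.84), a 2.29-fold higher level in low gainers with a limma adjusted p of 0.00434, the smallest of any member. With low gainer array 1 alone the difference was 0.04.

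Cox7c, a small membrane subunit, read 14.4, 13.8, 17.6 and 21.6 in high gainers and 17.9, 32.5 and 26.2 in low gainers. Cox4i1, the main form of subunit 4 in most tissues, read 34.1, 45.3, 38.4 and 40.4 in high gainers and 37.4, 67.9 and 57.2 in low gainers. For both genes arrays 3 and 4 exceeded every other array, and the limma adjusted p without array 1 was 0.0462 for Cox7c and 0.0555 for Cox4i1. Its paralogue Cox4i2, the form known from lung, had no value on the 7 arrays. Cox7b, another membrane subunit, read 84.9, 76.0, 98.5 and 95.5 in high gainers and 90.8, 82.8 and 61.3 in low gainers, a log2 difference of 0.18 (95% interval -0.13 to 0.50).

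Paralogues that are used in different tissues were compared by their differences only. Cox8a, the form used in brain, read 40.9, 47.2, 44.3 and 56.1 in high gainers and 53.1, 72.7 and 73.2 in low gainers, a log2 difference of -0.47 (95% interval -0.84 to -0.09). Cox8b, the form of heart and skeletal muscle, read 0.919, 1.14, 1.27 and 1.22 in high gainers and 1.12, 1.46 and 0.979 in low gainers, a difference of -0.06 (95% interval -0.56 to 0.45). Low gainer arrays 3 and 4 were both above the high gainers for Cox8a, and for Cox8b array 3 was above them and array 4 was inside their range.

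Cox6b1, the general form of a subunit facing the intermembrane space, read 14.6, 20.0, 17.8 and 24.4 in high gainers and 20.5, 43.7 and 23.9 in low gainers. Cox6b2, its testis form, read 0.284, 0.523, 0.262 and 0.372 in high gainers and 0.345, 0.613 and 0.477 in low gainers, and Cox7a1, the heart and muscle form of subunit 7a, read 0.629, 0.789, 0.714 and 0.932 in high gainers and 0.799, 0.996 and 0.969 in low gainers. Array 3 gave the highest value of the 7 for all 3 of these genes. Their log2 differences were -0.53, -0.52 and -0.30, and none was called by limma with or without low gainer array 1.

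Complex V consists of a catalytic head, a ring of c subunits that turns in the membrane, and the stalks and small subunits that join them. Atp5mpl, a small membrane subunit, had the lowest difference of all members and read 7.64, 10.4, 12.6 and 14.0 in high gainers and 11.7, 27.6 and 21.6 in low gainers. Atp5e, the epsilon subunit of the central stalk, read 6.04, 7.0, 6.58 and 8.27 in high gainers and 7.10, 14.1 and 10.7 in low gainers. Both genes repeated the order seen for Cox5b, with array 1 inside the high gainer range, and their log2 differences of -0.79 and -0.54 had a limma adjusted p of 0.750. Without array 1 their levels were 2.20-fold and 1.75-fold higher in low gainers, with limma adjusted p-values of 0.0248 and 0.0436. Atp5o, the subunit that ties the head to the outer stalk, read 13.0, 12.5, 11.1 and 12.4 in high gainers and 12.6, 18 and 15.2 in low gainers, and was not called either way.

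The 3 genes of subunit c encode the same mature protein with different import sequences. Atp5g1 read 19.6, 25.6, 23.3 and 17.6 in high gainers and 25.4, 30.6 and 23.4 in low gainers. Atp5g3 read 15.1, 22.8, 15.6 and 15.8 in high gainers and 17.5, 24.1 and 22.0 in low gainers, while Atp5g2 read 5.66, 6.49, 5.62 and 6.87 in high gainers and 6.42, 6.19 and 6.36 in low gainers. All low gainer values of Atp5g2 were inside the high gainer range, and the pools of the other 2 genes overlapped. The log2 differences were -0.28 (95% interval -0.65 to 0.09) for Atp5g1, -0.03 (95% interval -0.37 to 0.31) for Atp5g2 and -0.30 (95% interval -0.70 to 0.10) for Atp5g3.

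Atp5b, the catalytic beta subunit, read 81.4, 66.3, 66.2 and 66.6 in high gainers and 60.3, 73.4 and 101.6 in low gainers, so that the lowest and the highest array both belonged to the low gainers. Atp5md, a small membrane subunit also called DAPIT, read 117.5, 167.2, 185.5 and 150.5 in high gainers and 195.2, 46.1 and 153.5 in low gainers. Low gainer array 3 alone was far below the others for Atp5md, and its log2 difference of 0.45, the highest of all members, had a 95% interval of -0.39 to 1.29. Atp5j was read by 2 probes of opposite sign, the brighter with a log2 difference of 0.05 and the dimmer with -0.22 (95% interval -0.70 to 0.26).

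Other gene groups that many cells express in quantity were set beside the members on the same arrays. On low gainer arrays 1, 3 and 4 the median of 55 cytosolic ribosomal protein genes stood at 0.04, 0.47 and 0.29 relative to the high gainer mean on the log2 scale, that of 58 mitochondrial ribosomal protein genes at 0.06, 0.33 and 0.13, and that of 27 proteasome genes at 0.06, 0.36 and 0.31. The log2 difference between the pools had a median of -0.22, -0.14 and -0.22 in these 3 groups, with 48 of 55, 45 of 58 and 22 of 27 genes below 0. The order of the low gainer arrays, with array 1 lowest and array 3 highest, was thus also seen in transcripts outside the respiratory chain. Whether the members differed from these groups was not tested.

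**Figure D5:**
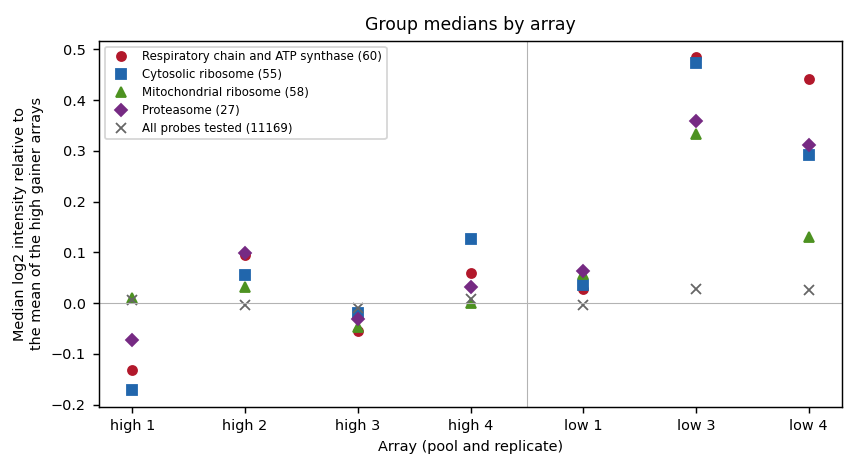
Median log2 intensity relative to the mean of the high gainer arrays (vertical) on each of 7 arrays (horizontal) for the members, 3 other groups of genes and all probes tested, with the number of genes or probes in the key. The members stand at 0.03, 0.48 and 0.44 on low gainer arrays 1, 3 and 4, all probes stay between -0.01 and 0.03, and the other groups also rise on arrays 3 and 4.

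Genes that build, feed or regulate the chain were listed apart from the members, and whether they differed from the members was not tested. Of 26 assembly factors of the complexes measured among 47 listed, 18 lay below 0 (median -0.09). They ranged from Coa7 at -0.66 to Atpaf2 at 0.23, with Surf1, needed for complex IV, at -0.28. Of 7 electron carriers and coenzyme Q enzymes 5 lay below 0 (median -0.02), with Cycs, the cytochrome c gene, at -0.05. For 13 enzymes of the tricarboxylic acid cycle and the pyruvate dehydrogenase complex 4 lay below 0 and 9 above (median 0.07, from Suclg1 at -0.31 to Dlst at 0.63). Both Coa7 and Dlst were dim, reading 0.227 to 0.611 and 0.258 to 1.06 on the 7 arrays. The list of adenine nucleotide and phosphate carriers also held channels and a creatine kinase, Ckmt1. Of its 7 measured genes 3 lay below 0 (median 0.14, with Ckmt1 at 0.47 and the channel Vdac1 at 0.41). Among 8 measured regulators of mitochondrial genes 4 lay below 0, with Ppargc1a, a coactivator of these genes, at 0.04 and Tfam, a factor for mitochondrial DNA, at -0.15. No gene of these 5 lists was called by limma in either direction, with or without low gainer array 1.

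Genes of the hypothalamus and of other cell types were read on the same arrays. With all 7 arrays limma called 3 of them, the anterior pituitary genes Gh, Prl and Cga, and 0 in each other list. Without low gainer array 1 it also called 1 red cell gene, lower in high gainers. The 10 hypothalamic genes had log2 differences below 0 for 9 of 10 (median -0.25), and their medians relative to the high gainer mean were 0.08, 0.36 and 0.36 on low gainer arrays 1, 3 and 4. For the 3 red cell genes measured of 5 listed these medians were 0.53, 1.19 and 0.81, and their summed level was 8.94 to 14.8 in high gainers and 18.4, 37.2 and 29.2 in low gainers. That sum is almost all Hba-a1, a globin gene, whereas Alas2 stood at 0.52, 0.16 and -0.19 on the 3 low gainer arrays, in another order.

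For the 6 oligodendrocyte genes measured of 9 the medians on low gainer arrays 1, 3 and 4 were -0.50, -1.04 and 0.13. Their sum, 49.1 to 77.9 in high gainers and 42.5, 13.8 and 44.7 in low gainers, is carried by Mbp, the myelin basic protein gene. On array 4 Mbp, Mag and Cnp lay below the high gainer mean while Mal, Mog and Cldn11 lay above it, at 0.63, 0.43 and 0.77. For the 3 astrocyte genes measured of 7 the medians were -0.14, -0.21 and 0.53, and the sum, carried by Aldoc, was 42.5 to 53.1 in high gainers and 44.7, 49.0 and 37.3 in low gainers. On array 4 Aldoc stood at -0.38, Gja1 at 0.53 and Slc1a2 at 0.91, so that the sum and the median of these genes had opposite directions there.

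For the 5 neuron genes measured of 7 the medians were -0.03, -0.19 and 0.07, and the sum was 98.8 to 133.8 in high gainers and 117.2, 114.1 and 124.9 in low gainers. The 3 choroid plexus genes measured of 5 had medians of 0.05, 0.08 and 0.57, and their sum, carried by Ttr, was 261 to 300.5 in high gainers and 288.3, 395.2 and 304.8 in low gainers. The sums of all these lists are in deposited units, whereas the medians are taken after normalization. For Ttr the scales disagreed: low gainer arrays 3 and 4 read 390.9 and 299.9 as deposited but stood at 0.33 and 0.76 after normalization. Acta1, the 1 of 5 muscle genes measured, read 0.564 to 0.844 in high gainers and 0.709, 0.95 and 0.851 in low gainers. The 3 anterior pituitary genes measured of 10 (Gh, Prl and Cga) had medians of -3.05, -2.08 and -3.55, and a sum of 8.30 to 10.4 in high gainers and 0.996, 1.38 and 0.837 in low gainers. The part of these genes or of tissue composition in the members' values was not tested, and fewer cells of a type cannot be told apart from less RNA per cell in pooled tissue.

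Low gainer array 2 gave a value for 35 of the 60 members. Their median percentile on that array was 71.9, and 29 of the 35 were below their lowest percentile on any of the other 7 arrays while 2 were above their highest. Ndufs1 read 0.682, Ndufa13 0.321 and Cox7b 0.312 there, against at least 29.5, 44.5 and 61.3 on the other arrays. Ndufa1 went the other way and read 155.7, against 2.78 to 7.74 elsewhere. Cox4i2 and Sdhb, the iron-sulphur subunit of complex II, had their only values on this array, 0.626 and 0.524.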

How the data were processed

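Pooled hypothalamus RNA of high and low gainers was labelled with digoxigenin, hybridized to mouse genome survey arrays and read by chemiluminescence. The authors normalized the signal intensities across arrays by quantiles. They kept features that reached a lower limit on signal over noise and lay below an upper limit on quality flag values. The deposited values are these normalized intensities on a linear scale, in which probes that were not detected have no value. The number of arrays limits the precision, and no read depth applies. Here values were taken to log2, quantile normalized again over the 11169 probes detected on each of the 7 arrays, and fitted with limma 3.58.1 in R 4.3.3 (lmFit, and eBayes with a trend), with Benjamini-Hochberg adjustment over all probes and a threshold of 0.05. High gainer arrays 1 to 4 were compared with low gainer arrays 1, 3 and 4 without a block. A gene with 2 probes was represented by the brighter. The fit was tested on simulated data.

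The 4 genes of each complex with the smallest p, the 2 brightest, the genes of subunit c and the measured paralogues of Cox4i, Cox6a, Cox6b, Cox7a and Cox8 are given by array, and other genes were named after their values were seen. The members and gene lists were chosen with earlier results of these data known. All 62 members matched RefSeq by gene identifier. Probes naming several genes (247) or no gene (18354) were not used for members. Proteins encoded in mitochondrial DNA were not analysed here. Alternatives covered the arrays used, normalization, a pseudocount, a filter on dim probes, missing values, the variance model, the replicate number as a block, the methods' t-test and leaving out each array.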

Additional observations from a re-analysis of the deposited data

Results flagged for a closer look

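Of 31 groups of 4 arrays searched for 1 array far from the others, 3 held one, and chance flags about 1 in 20 such groups. Ndufa1 read 2.775 on high gainer array 1, against 4.097 to 4.47 on the other high gainer arrays. Atp5g3 read 22.76 on high gainer array 2, against 15.13 to 15.83 on the others. The median percentile of the members was 71.94 on low gainer array 2, against 90.87 to 94.12 on the other low gainer arrays. Outside the arrays compared, Cox4i2 had a value of 0.6261 and Sdhb a value of 0.5243 on low gainer array 2, where neither gene had one on the remaining arrays of either pool, and no difference between the pools was computed for them.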

How the results depend on the processing

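Leaving out 1 array at a time gave 2 to 171 probes called by limma over the array and 0 to 10 members called, with the highest of both without low gainer array 1. The members' median log2 difference then ranged from -0.41 to -0.21, the number of members below 0 from 47 to 49, and the number whose pools did not overlap from 1 to 32. That last number was 32 without low gainer array 1 (26.3% of all probes), 3 without high gainer array 2 (10.5%), 10 without high gainer array 4 (8.05%), 3 without low gainer array 3 (7.77%) and 4 without low gainer array 4 (16.4%). Over these omissions Sdha ranged from -0.1265 (without low gainer array 1) to 0.5523, and Sdhc from -0.2598 to 0.1688 (without low gainer array 4). With all 8 arrays 1 probe was called. The members' median was then 0.1634, with 12 of 35 below 0 and 0 not overlapping (2.72% of all probes). Sdhc was at 0.6072, Cox7c at 0.4358, Cox8a at 0.3124, Atp5e at 0.7018, Atp5o at 0.0865 and Atp5g1 at 0.1634, each of the other sign. With low gainer array 1 as the only low gainer array, an alternative added after seeing the data, 5 probes were called with a spread taken from the high gainer arrays alone, the median was -0.0272, 14 members did not overlap (40.2% of all probes), and Ndufa1 was at 0.0028, Sdhd at -0.1041, Sdhc at 0.0484, Uqcrq at 0.0181 and Cox5b at 0.0369. Array weights put Sdhc at 0.0088. Cyclic loess left 2 members not overlapping (4.88% of all probes). The brightest 50% of probes gave 1 probe called and 0 members not overlapping (4.78% of those probes). The methods' t-test called 0 probes (limma 3). Same-numbered arrays did not deviate together (r of -0.20, 0.13 and -0.14), and the replicate block called 9 probes and 0 members, with a members' median of -0.33. Among 19 genes followed through the alternatives, no sign changed other than those given here. The cause of these changes was not tested. With 7 arrays from 2 pools, differences of the size of the spread within a pool could not be told from 0, and no result extends to single mice.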
